A study of Mus musculus with 34 samples.

Results

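The components of the Wnt pathway were examined in MOSJ-Dkk-1 cells, a mouse osteosarcoma line that secretes human Dickkopf-1 (Dkk-1). The set comprised every gene of the culture table whose symbol starts with Wnt, Fzd, Sfrp or Dkk followed by a digit, together with 33 named genes for receptors, transducers, antagonists, feedback regulators and 4 widely used targets. The rule found 41 of the 16576 genes listed. They were 7 ligands, 2 genes for ligand secretion, 2 Dickkopf family members with the Dickkopf receptor Kremen1, 8 frizzled receptors, 5 co-receptors or other receptors, 7 intracellular transducers, 2 transcription factors, the feedback genes Axin2, Lef1 and Tcf7, and the targets Myc, Ccnd1, Ccn4 and Ccn5. Mouse Dkk1, the Sfrp genes, Wif1, Kremen2, Ror2, Nkd1, Notum, Rnf43, Znrf3, Lgr5 and Sp5 had no value analysed here, and the human transgene is no row of a mouse gene table.

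Wnt ligands are lipidated by Porcn, carried to the surface by Wls and bound by frizzled receptors. In canonical Wnt (cWnt) signalling, a frizzled and its co-receptor Lrp5 or Lrp6 recruit dishevelled (Dvl) proteins and disable the complex of Axin, Apc and Gsk3b, so that β-catenin (Ctnnb1) escapes destruction and activates genes bound by Tcf and Lef factors. Dkk-1 and Dkk2 bind Lrp5 and Lrp6 and interrupt that route, whereas Wnt5a, Ror1 and Ryk are best known from non-canonical (ncWnt) routes. Osteosarcoma arises in bone, where cWnt drives osteoblast formation, and Axin2, Lef1 and Tcf7 are among the genes that β-catenin itself induces.

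Cultures fell into 6 groups of 3 libraries. All cells carried the human Dkk-1 cDNA under the cytomegalovirus promoter in a pLenti vector and a red fluorescent label, and came from a single line. Log phase cultures were taken after 6 days of growth and cultures under nutritional stress after 48 h of confluence and 4 days without a change of medium. In each condition, cells received no morpholino (NT), 5 µM of a vivo morpholino against the start of the human Dkk-1 transcript (DkkMo), or 5 µM of a mismatched control morpholino (scrMo). The concentration is that of the study's sequencing methods, and a legend there states another for log phase cultures. The study's results state 6 days of exposure for both conditions, while its methods state a week of treatment after describing the stress cultures. Length of exposure may therefore differ between conditions, and its part cannot be told apart from theirs. Whether the 3 libraries of a group came from separate passages is not given in the sources used here, so the p-values measure the spread between these libraries, which may be technical.

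The libraries held 25.9 to 44.8 M reads on the 16562 genes tested. Levels are given as normalised read counts, that is reads divided by the size factor of the library, and differences as log2 differences of the deposited variance-stabilised values with their SE. The variance-stabilised scale shrinks differences of low genes, so the ratio of mean normalised counts is given beside it. A difference passed the test where the adjusted p of limma, over 16562 genes, lay below 0.05. It was called differentially expressed (DE) where it also exceeded 1.5-fold, or 0.585 on the log2 scale. Of the 9 osteoblast lineage markers, 7 had a value. Runx2 lay between 1736 and 5718 and Spp1 between 49248 and 214487 normalised counts, while Alpl did not exceed 24.4 and Bglap 43.9. The mitochondrial genes took 5.30 to 5.80% of the reads in the scrMo libraries under stress and 1.545 to 2.68% in the other 15. The macrophage list, with Ptprc at 1.04 to 20.3 and 4 of its 6 genes with a value, summed to 960 to 1032 normalised counts in log phase NT, 1443 to 1899 in log phase scrMo, 1285 to 1582 in log phase DkkMo and 2088 to 2411 under stress. Most of that sum was Cd68, at 391 to 1551, and Csf1r, at 414 to 782. Between stress and log phase in NT, 2 of the 4 passed higher and 2 lower, beside 65.6% of all genes that passed. The part of these markers or of the mitochondrial reads in any difference below was not tested.

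Promoter windows of 300 bases, 250 before and 50 after an annotated start, were held for 25 of the 41 members in RefSeq (build GRCm38.p6). Each was searched on both strands for CTTTGA, the core of the sequence bound by Tcf and Lef factors, and CACGTG, the E-box bound by Myc and its relatives. The Tcf/Lef core stood in windows of 5 members, namely Fzd1, Gsk3b, Lef1, Ror1 and Wnt5b, beside 18.2% of all 27025 genes with a window and 16% of all 32851 windows. An E-box stood in windows of 4 members, namely Dvl2, Fzd9, Lef1 and Wnt9a, beside 8.09% of all genes and 7.15% of all windows. The motifs do not overlap each other. A match describes the letters of the window and is not evidence of binding. The windows below belong to members whose levels are described in what follows: the feedback genes Axin2 and Lef1, the receptor Ror1 that was lowest in scrMo cultures of log phase, the ligand Wnt9a that rose under stress, and Dvl2, which was lower with DkkMo under stress. Where a gene had several windows, the one with most matches is shown. Capitals mark the motifs.
Axin2 (chr11:108920099-108920398, plus strand): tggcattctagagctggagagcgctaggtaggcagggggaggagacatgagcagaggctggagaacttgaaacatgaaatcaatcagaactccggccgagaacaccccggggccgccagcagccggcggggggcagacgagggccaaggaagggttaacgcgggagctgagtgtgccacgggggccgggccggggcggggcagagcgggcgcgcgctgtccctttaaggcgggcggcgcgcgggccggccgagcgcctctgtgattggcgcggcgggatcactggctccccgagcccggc
Lef1 (chr3:131156044-131156343, plus strand): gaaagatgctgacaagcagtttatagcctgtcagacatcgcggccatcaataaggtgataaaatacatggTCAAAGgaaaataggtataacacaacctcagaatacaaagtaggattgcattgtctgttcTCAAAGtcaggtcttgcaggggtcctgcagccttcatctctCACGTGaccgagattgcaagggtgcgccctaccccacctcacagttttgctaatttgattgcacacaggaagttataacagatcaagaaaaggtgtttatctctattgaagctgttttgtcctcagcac
Ror1 (chr4:100095541-100095840, plus strand): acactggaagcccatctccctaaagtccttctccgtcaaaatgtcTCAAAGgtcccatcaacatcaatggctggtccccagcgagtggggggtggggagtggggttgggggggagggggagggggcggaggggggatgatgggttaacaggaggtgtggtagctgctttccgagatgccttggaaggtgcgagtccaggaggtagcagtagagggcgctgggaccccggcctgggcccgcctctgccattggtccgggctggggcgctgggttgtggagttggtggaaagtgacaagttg
Wnt9a (chr11:59306680-59306979, plus strand): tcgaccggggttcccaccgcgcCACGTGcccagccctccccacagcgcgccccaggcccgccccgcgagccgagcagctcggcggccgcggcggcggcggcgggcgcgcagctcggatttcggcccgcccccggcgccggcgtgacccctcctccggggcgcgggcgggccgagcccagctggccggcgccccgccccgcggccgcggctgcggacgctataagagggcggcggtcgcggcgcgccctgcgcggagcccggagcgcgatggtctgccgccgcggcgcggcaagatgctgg
Dvl2 (chr11:70000342-70000641, plus strand): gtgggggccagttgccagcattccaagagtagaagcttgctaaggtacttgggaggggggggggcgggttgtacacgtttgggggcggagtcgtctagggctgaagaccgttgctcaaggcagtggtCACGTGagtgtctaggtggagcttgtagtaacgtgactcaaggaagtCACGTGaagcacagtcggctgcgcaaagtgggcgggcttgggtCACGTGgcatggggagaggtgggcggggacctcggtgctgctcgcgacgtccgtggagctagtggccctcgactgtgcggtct

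The Axin2 window held neither motif. The Lef1 window, 1 of 4 for that gene, held 2 Tcf/Lef cores and 1 E-box. It belongs to an internal start, far downstream of the start of the gene at position 131110471 of chromosome 3, and the other 3 windows of Lef1 held neither motif. The Ror1 window held 1 core, the Wnt9a window held 1 E-box and the Dvl2 window held 3 E-boxes, at positions 128, 175 and 218 counted from the first base printed.

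The set spanned 3 orders of magnitude in level, which can be compared between genes only per kilobase of exon. Averaged over the 18 libraries, the highest members were the targets Myc with 4657 and Ccnd1, cyclin D1, with 4412 normalised counts per kb, followed by the transducer Ctnnb1 with 4033. Wnt10b, a ligand known for promoting bone formation, stood at 1387 per kb and was far above the next ligand, Wnt5a, at 87.6. Among the receptors, Ryk, a Wnt receptor outside the frizzled family, led with 790.1 per kb, and Fzd7 was the highest frizzled with 419.9. Dkk3, a divergent Dickkopf, reached 433 per kb, whereas Dkk2 reached 15.2.

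At the other end, Wnt6 at 4.19, Ror1 at 4.89, Wnt2b at 5.19, Axin2 at 6.17 and Fzd9 at 8.69 normalised counts per kb were the lowest of the set. In all, 25 members lay above the median gene and 8 averaged under 100 normalised counts, so small differences of those 8 may have been missed at this depth. The 3 feedback genes differed in level, with Tcf7 at 412, Lef1 at 94.1 and Axin2 at 6.17 per kb.

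**Figure D1:**
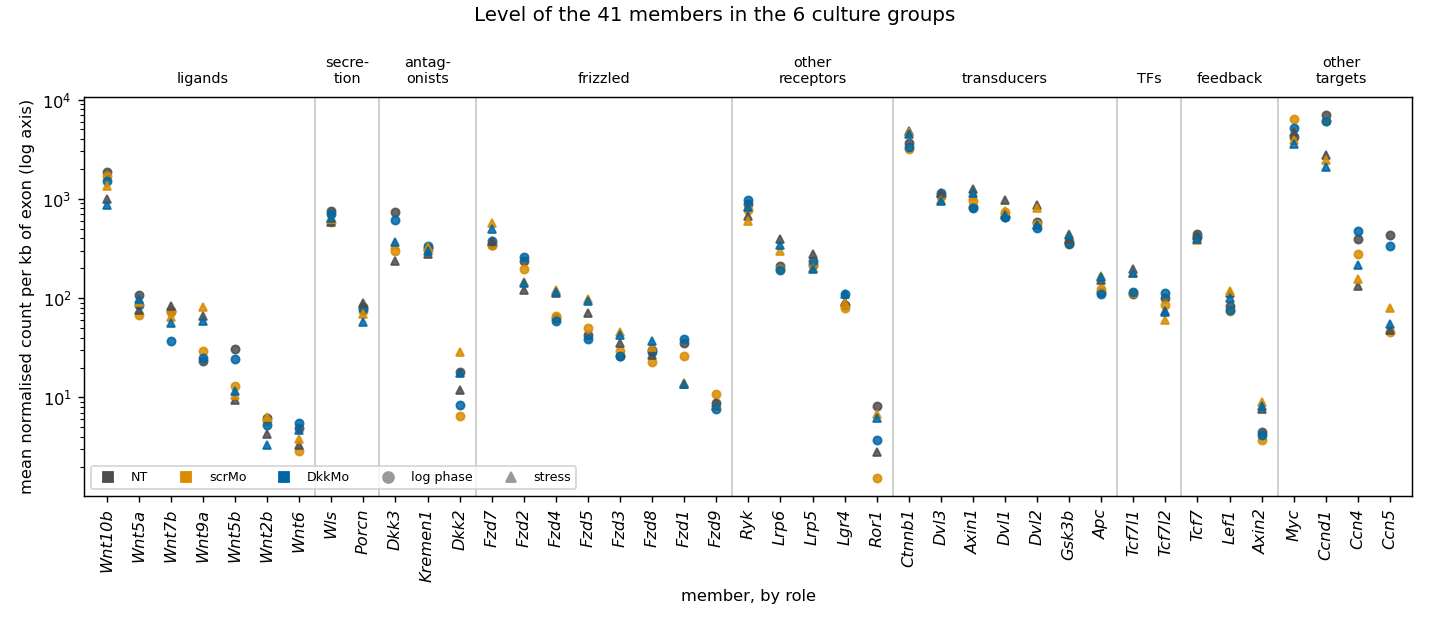
Mean normalised read count per kilobase of exon (log axis) of each of the 41 members, grouped by role and ordered by level; circles are log phase and triangles nutritional stress, coloured by NT, scrMo and DkkMo, and each point is the mean of 3 libraries. Wnt10b lies above the other 6 ligands in every group, and Axin2 is the lowest feedback gene in every group.

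In log phase, 3 members were DE between DkkMo and scrMo, all higher with DkkMo, against 1.97% of all genes tested, or 1.66% higher. They were Ccn5 and Ccn4, matricellular proteins of the CCN family first described as Wnt1-inducible, and Dkk3. With the adjusted p alone, 17 of 41 passed, against 23.5% of all genes. Of these, 12 were higher, against 14.3% of all genes, and 5 lower, against 9.2%. The median difference of the 41 was 0.03, beside 0.00 over all genes. Against NT cultures, by contrast, no member was DE with DkkMo in limma, against 0.827% of all genes. There 17 members had an unadjusted p below 0.05, for which the share over all genes is not given here. With the adjusted p 10 passed, against 9.81% of all genes. Of these 10, 3 were higher and 7 lower with DkkMo, and the shares by direction over all genes are not given here. Limma voom on the reads called 3 members, and 555 of all 16562 genes. The scrMo control itself differed from NT in log phase, where 3 members were DE, against 2.45% of all genes. Ccn5 and Dkk3 were lower (1.85% of all genes) and Myc higher (0.592% of all genes). By the adjusted p 14 passed, against 26.4% of all genes. Of these 14, 3 were higher and 11 lower with scrMo, again without shares by direction. These comparisons share libraries, so the values of each group are given side by side.

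Ccn5 (chr2:163820861-163833146, build GRCm38) had normalised counts of 856, 780.4 and 849 in NT, 144, 46.1 and 72.2 in scrMo and 510.1, 1004 and 399 in DkkMo cultures of log phase. The scrMo libraries were the low ones and did not overlap either other group, while the NT libraries lay within the range of the DkkMo libraries. Ccn5 was thus 7.3 times higher with DkkMo than with scrMo (log2 difference 1.51 ± 0.163, adjusted p = 3.97e-06), and 9.48 times lower with scrMo than in NT cultures (log2 difference -1.85 ± 0.163, adjusted p = 1.34e-07). Between DkkMo and NT the log2 difference was -0.34 ± 0.163, with a 95% interval of -0.68 to -0.00 and an adjusted p of 0.217. Under nutritional stress its level was low in all 9 libraries, at 92.6, 87.1 and 94.8 in NT, 165, 145 and 145 in scrMo and 101, 89.9 and 125 in DkkMo cultures.

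Dkk3 showed the same order in log phase, with 2189, 2552 and 2741 normalised counts in NT, 1189.5, 802 and 1045 in scrMo and 1718, 2544 and 1841 in DkkMo cultures. Again scrMo stood apart below both other groups, which overlapped. Dkk3 was 2.01 times higher with DkkMo than with scrMo (log2 difference 0.84 ± 0.112, adjusted p = 3.38e-05) and 2.46 times lower with scrMo than in NT cultures (log2 difference -1.12 ± 0.112, adjusted p = 7.63e-07). DkkMo and NT differed by -0.27 ± 0.112 (95% interval -0.51 to -0.04, adjusted p = 0.144).

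Ccn4 was the DE member that separated DkkMo from both controls. It had 2203, 2164 and 2154 normalised counts in NT, 1463, 1455 and 1724 in scrMo and 2647, 2524 and 2833 in DkkMo cultures, so the 3 groups did not overlap and DkkMo was the highest. The difference was 1.72-fold against scrMo (log2 0.69 ± 0.063, adjusted p = 6.58e-07) and 1.23-fold against NT (log2 0.26 ± 0.063, adjusted p = 0.0103, not DE). The scrMo cultures lay 1.4 times below NT (log2 -0.43 ± 0.063, adjusted p = 5.5e-05).

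**Figure D2:**
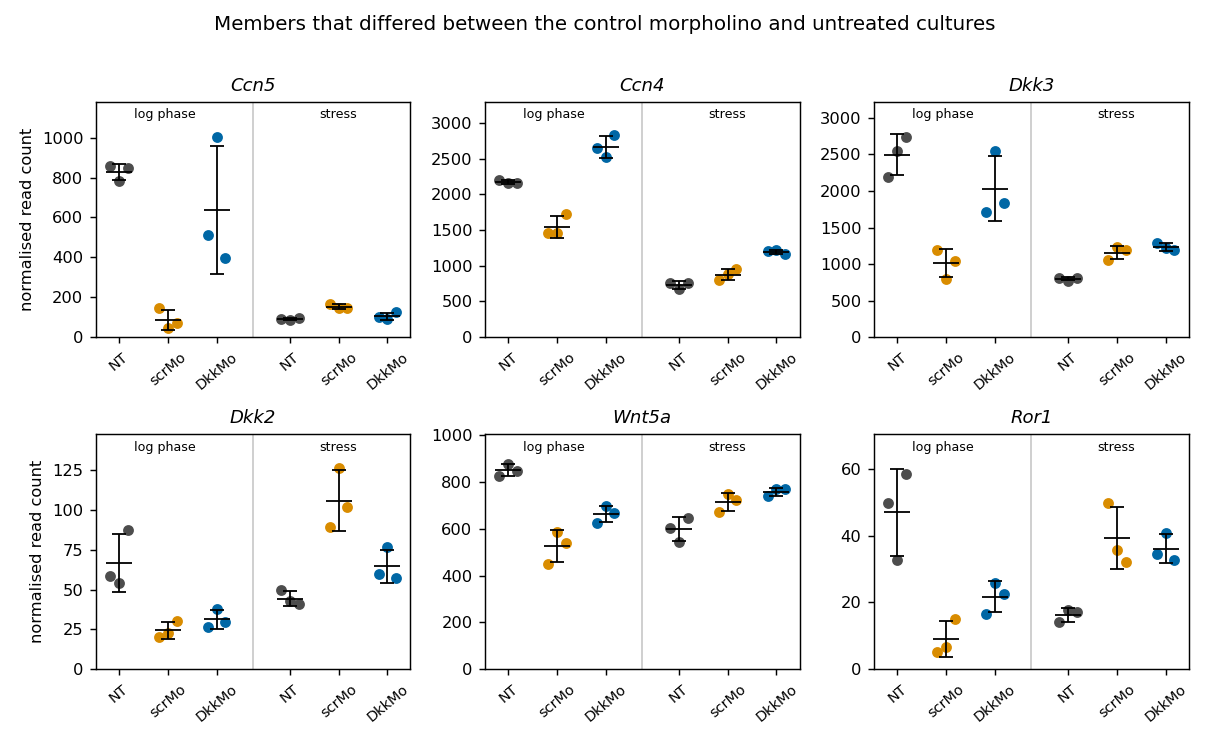
Normalised read counts of Ccn5, Ccn4, Dkk3, Dkk2, Wnt5a and Ror1 in each library; points are the 3 libraries of a group, bars the mean and its SD, with log phase left and nutritional stress right of the line. In log phase the scrMo libraries of all 6 genes lie below the NT libraries, and only for Ccn4 do all DkkMo libraries exceed NT; under stress the scrMo libraries of all 6 genes lie above the NT libraries.

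Ror1 and Dkk2, members of low level, were also lowest in log phase scrMo cultures. Ror1, a receptor for Wnt5a, had 49.7, 32.8 and 58.4 normalised counts in NT, 5.10, 6.75 and 15.0 in scrMo and 16.6, 25.8 and 22.4 in DkkMo cultures. It was 5.24 times lower with scrMo than in NT on the count scale while the log2 difference on the compressed scale was -0.45 (adjusted p = 2.13e-05), and DkkMo lay between the other groups without overlap. Dkk2, an antagonist that like Dkk-1 binds Lrp6, had 58.6, 54.1 and 87.6 in NT, 20.4, 22.5 and 30.1 in scrMo and 26.6, 37.7 and 29.5 in DkkMo cultures. Here both morpholino groups were below NT, with log2 differences of -0.37 for scrMo (adjusted p = 0.000267) and -0.29 for DkkMo (adjusted p = 0.00536), and they did not pass the test against each other (adjusted p = 0.42).

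Among the 7 ligands, DkkMo separated Wnt7b most from both controls in log phase. Wnt7b signals through β-catenin in several tissues. Its normalised counts were 382, 338 and 366 in NT, 345, 344 and 386 in scrMo and 205, 167 and 176 in DkkMo cultures. The DkkMo libraries were low without overlap, 1.96 times below scrMo (log2 -0.54 ± 0.055, adjusted p = 2.52e-06) and 1.98 times below NT (log2 -0.55 ± 0.055, adjusted p = 3.9e-06). Both fell just short of the fold limit on the compressed scale and passed it on the count scale. The log2 difference between the controls was -0.01, with a 95% interval of -0.13 to 0.11. The transcript AU022754 overlaps 6.61% of the exon bases of Wnt7b on the opposite strand. Its log2 difference with DkkMo was -0.13 from scrMo and -0.12 from NT, not DE.

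Wnt10b, the most abundant ligand, had 5999, 6727 and 6492 normalised counts in NT, 5706, 5655 and 6084 in scrMo and 5051, 5382 and 5072 in DkkMo cultures of log phase. DkkMo was lowest without overlap (log2 -0.29 against NT, adjusted p = 0.00198, and log2 -0.16 against scrMo, adjusted p = 0.0438). Wnt5a, the best known ncWnt ligand, was highest in NT at 827, 876 and 849, lowest in scrMo at 452, 585 and 541 and intermediate in DkkMo at 625, 696 and 667, with no overlap between the 3 groups. Its differences were -0.51 for scrMo against NT (adjusted p = 6.9e-06), -0.27 for DkkMo against NT (adjusted p = 0.00781) and 0.24 for DkkMo against scrMo (adjusted p = 0.00815).

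Its relative Wnt5b had means of 81.6 ± 6.01 in NT, 34.3 ± 6.92 in scrMo and 64.7 ± 16.2 in DkkMo cultures (SD, n = 3), and passed the test for scrMo against NT (log2 -0.36) and DkkMo against scrMo (log2 0.25). Wls, which carries ligands to the surface, was likewise lowest in scrMo, at 4832, 5085 and 5439 against 6950.2, 6454 and 6412 in NT and 5585, 6704 and 6249 in DkkMo. The remaining ligands Wnt2b, Wnt6 and Wnt9a and the acyltransferase Porcn did not pass in any of the 3 log phase comparisons.

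The receptors Ryk and Lgr4 were higher with DkkMo than with scrMo. Ryk, which signals mostly outside the β-catenin route, had 4025, 3956 and 4176 normalised counts in NT, 3739.9, 3356 and 3415 in scrMo and 4284, 4730.3 and 4227 in DkkMo cultures, a log2 difference of 0.31 from scrMo (adjusted p = 0.000181), while that from NT was 0.11 (adjusted p = 0.174). Lgr4, a receptor for the R-spondins that enhance Wnt signalling, had 488, 507 and 514 in NT, 406, 491 and 509 in scrMo and 533, 753 and 636 in DkkMo. All DkkMo libraries exceeded all control libraries, with a log2 difference of 0.31 from scrMo (adjusted p = 0.0037) and 0.24 from NT (adjusted p = 0.0413). Of the 8 frizzled genes, Fzd1 and Fzd2 passed for DkkMo against scrMo (log2 0.24 and 0.29) and none passed against NT, while Lrp5 and Lrp6 passed in no log phase comparison.

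The feedback genes did not pass the test in any log phase comparison of morpholinos. Axin2, often used as a reporter of cWnt activity, had 21.3, 31.3 and 20.7 normalised counts in NT, 11.2, 24.8 and 25.1 in scrMo and 16.6, 32.8 and 19.3 in DkkMo cultures, and the 3 groups overlapped. Its log2 difference between DkkMo and scrMo was 0.03 with a 95% interval of -0.11 to 0.18, on a scale that shrinks genes of this level. Lef1, with 735, 718 and 726 in NT, 647, 720.0 and 595 in scrMo and 705, 674 and 618 in DkkMo, gave an interval of -0.09 to 0.13 for the same comparison. Tcf7, with 1042, 1210.5 and 1193 in NT, 1080.5, 1113 and 1083 in scrMo and 1108, 1077 and 1084 in DkkMo, gave -0.11 to 0.10. For the 2 well expressed feedback genes the interval therefore lay inside the 1.5-fold limit on either side.

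Myc, a proliferation regulator and a classical cWnt target, had 11719, 11676 and 10843 normalised counts in NT, 18596, 17496 and 16318 in scrMo and 16421, 11684 and 14148 in DkkMo cultures of log phase. It was 1.53 times higher with scrMo than in NT (log2 0.60 ± 0.084, adjusted p = 3.23e-05), and DkkMo overlapped both, with log2 differences of -0.32 from scrMo (adjusted p = 0.00967) and 0.28 from NT (adjusted p = 0.0366). Without NT library 3 or scrMo library 1 the difference between scrMo and NT was 0.57 or 0.56, under the fold limit. Ccnd1 was slightly lower with either morpholino, at 28728, 27973 and 28519 in scrMo and 29558, 27734 and 29387 in DkkMo against 30779.8, 34139 and 33788 in NT, a log2 difference of -0.21 and -0.18. Myc and Ccnd1 follow the cell cycle in many cells. The 14 proliferation genes with a value summed to 27309 to 32848 normalised counts in NT, 18575 to 22149 in scrMo and 29800 to 42349 in DkkMo, and the summed osteoblast markers were lowest in scrMo too, where 4 of 7 were DE below NT, against 1.85% of all genes. The part of either in the differences above was not tested.

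Transducers and transcription factors passed the test in log phase only with differences inside the fold limit. Axin1 and Dvl1 were lower with DkkMo than with scrMo (log2 -0.21 and -0.15) and higher with scrMo than in NT (log2 0.17 and 0.16). Ctnnb1 was lower with scrMo than in NT (log2 -0.21, adjusted p = 0.0219), and Dvl2 was lower with DkkMo than in NT (log2 -0.19, adjusted p = 0.0451). Tcf7l2, a Tcf factor that can activate or repress, was higher with DkkMo than with scrMo (log2 0.30, adjusted p = 0.00368). Dvl3, Apc and Gsk3b did not pass in log phase. The counts depended on the scale. With log2 of the normalised count plus 1, 6 members were DE between DkkMo and scrMo, adding Ror1 and Wnt5b as higher and Wnt7b as lower, 3 between DkkMo and NT (Dkk2, Ror1 and Wnt7b, all lower) and 7 between scrMo and NT, adding Dkk2, Ror1, Wnt5a and Wnt5b as lower. On that scale 1158, 523 and 1320 of 16562 genes were DE in the same order, so calls rose over all genes too. With each library centred on its median, Wnt7b joined the DE members between DkkMo and scrMo, which were then 3 higher and 1 lower. There 278 of all genes were DE.

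Under nutritional stress, no member was DE between DkkMo and scrMo in limma, against 1% of all genes. At an unadjusted p below 0.05, for which the share over all genes is not given here, there were 16. With the adjusted p there were 10, against 20.9% of all genes. Of these 3 were higher, against 9.97%, and 7 lower, against 10.9%. Limma voom called 2 members, Dkk2 and Wnt10b, both lower, and 924 of all 16562 genes. Between DkkMo and NT, 1 member was DE, Dvl2, against 2.66% of all genes, and 20 passed the adjusted p, against 41.7%, 10 higher against 19% and 10 lower against 22.7%. On log2 of the normalised count plus 1, 5 were DE there, Ccn4, Dkk3 and Ror1 higher and Dvl2 and Porcn lower, and limma voom called 5, Ccn4, Dkk2, Dkk3, Fzd8 and Ror1, all higher. Of all 16562 genes, 2317 were DE there on the log2 scale and 2740 with limma voom. Between scrMo and NT, no member was DE in limma, against 4.43% of all genes. There 23 had an unadjusted p below 0.05, for which the share over all genes is not given here. With the adjusted p 22 passed, against 46.8% of all genes, and limma voom called 4, Dkk2, Dkk3, Fzd7 and Ror1, all higher. Limma voom called 3152 of all 16562 genes in that comparison. Reads on mitochondrial genes were highest in scrMo under stress, as given above, and their part in the comparisons with scrMo was not tested.

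Dvl2 (chr11:70000595-70012301), a dishevelled protein that passes the signal of frizzled receptors to both cWnt and ncWnt routes, was the DE member between DkkMo and NT. Its normalised counts under stress were 5326, 5653 and 5582 in NT, 5209, 5029 and 5070.3 in scrMo and 3413, 3336 and 3529 in DkkMo cultures. All DkkMo libraries lay below all control libraries, 1.61 times below NT (log2 -0.65 ± 0.057, adjusted p = 1.24e-07) and 1.49 times below scrMo (log2 -0.54 ± 0.057, adjusted p = 2.28e-06). In log phase its normalised counts were 3643, 3719.7 and 3782 in NT, 3717, 3549 and 3313 in scrMo and 3525, 3294 and 2895 in DkkMo, and the difference between DkkMo and scrMo depended on the condition (interaction -0.42 ± 0.081, adjusted p = 0.00108). Its window, printed above, is the one with 3 E-boxes. Exons of Dvl2 overlap 1151 bases of Acadvl on the opposite strand, and whether counting used strand is not given in the sources used here. The log2 difference of Acadvl between DkkMo and NT under stress was 0.08. Dvl2 lost the DE call under quantile normalisation (log2 -0.51) and with limma voom on the reads (log2 -0.53), with the same direction.

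The other dishevelled genes were lower with both morpholinos. Dvl1 was lower with both morpholinos than in NT under stress, at 3649, 3891 and 3778 in scrMo and 3535, 3253 and 3613 in DkkMo against 4718, 4846 and 4868 in NT, log2 differences of -0.33 and -0.44. Dvl3 was lower with both too (log2 -0.22 and -0.23). The co-receptor Lrp5 showed the same with 2725, 2612 and 2743 in NT, 1946, 1991 and 1941 in scrMo and 1914, 1791 and 2001 in DkkMo cultures, where both morpholino groups were below NT (log2 -0.41, adjusted p = 9.54e-06, and log2 -0.45, adjusted p = 5.64e-06) and overlapped each other. Porcn was also below NT with both (log2 -0.18 and -0.33).

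Wnt10b was again lowest with DkkMo. Under stress its normalised counts were 3525, 3275 and 3288 in NT, 4314, 4876 and 4557 in scrMo and 2922, 2866 and 3134 in DkkMo cultures, and the 3 groups did not overlap. The difference from scrMo was 1.54-fold (log2 -0.58 ± 0.056, adjusted p = 6.88e-07), just inside the fold limit on the variance-stabilised scale. That from NT was 1.13-fold (log2 -0.16 ± 0.056, adjusted p = 0.0258), and scrMo lay above NT (log2 0.42, adjusted p = 8.14e-06). The larger difference from scrMo under stress than in log phase passed as an interaction (-0.42 ± 0.079, adjusted p = 0.000989).

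Wnt7b, by contrast, differed less between DkkMo and scrMo under stress, at 296, 269.6 and 267 in DkkMo and 298, 332 and 321 in scrMo with 378, 404 and 444 in NT (interaction 0.43 ± 0.078, adjusted p = 0.000779). It was lower than in NT with DkkMo (log2 -0.34, adjusted p = 9.79e-05) and with scrMo (log2 -0.23, adjusted p = 0.00258). Wnt9a was lowest with DkkMo and highest with scrMo, at 203, 181 and 199 with DkkMo, 249.5, 279 and 288 with scrMo and 206, 218 and 233 in NT. DkkMo was lower than scrMo (log2 -0.26, adjusted p = 0.000554) and did not pass against NT (adjusted p = 0.136).

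Under stress, Ryk and Lgr4 were higher with DkkMo than with either control, whereas in log phase Ryk did not pass against NT. Ryk had 3089, 3085 and 2925 normalised counts in NT, 2703, 2703 and 2708 in scrMo and 3887, 3745 and 3730.4 in DkkMo, so that DkkMo exceeded both without overlap (log2 0.45 ± 0.050 against scrMo, adjusted p = 4e-06, and 0.30 ± 0.050 against NT, adjusted p = 0.000124). Lgr4 had 539.8, 535 and 524 in NT, 537, 531 and 506 in scrMo and 601, 672 and 656 in DkkMo, with log2 differences of 0.21 from scrMo and 0.19 from NT. Ccn4 was highest with DkkMo as well, with 755, 669.9 and 764 in NT, 797, 879.8 and 954 in scrMo and 1204, 1216 and 1158 in DkkMo, 1.36 times scrMo (log2 0.36, adjusted p = 0.000461) and 1.63 times NT (log2 0.56, adjusted p = 1.79e-06).

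**Figure D3:**
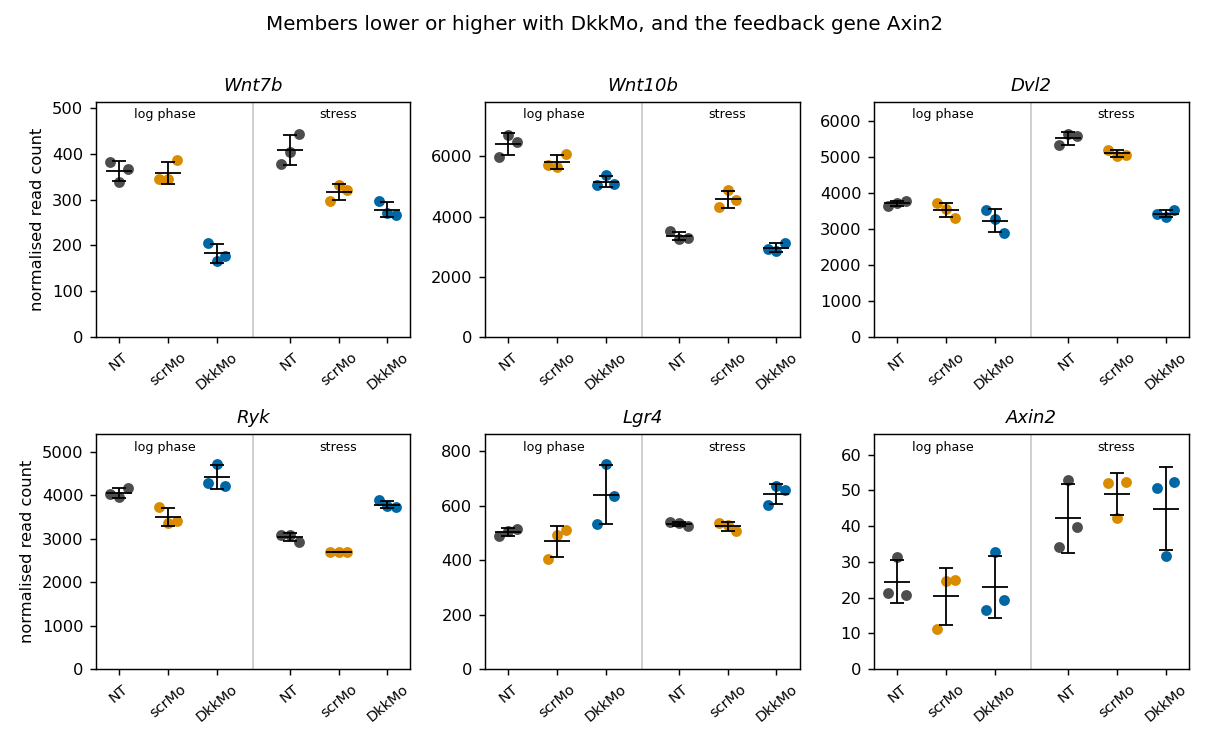
Normalised read counts of Wnt7b, Wnt10b, Dvl2, Ryk, Lgr4 and the feedback gene Axin2 in each library; points are the 3 libraries of a group, bars the mean and its SD. Wnt10b is lowest and Lgr4 highest with DkkMo in both conditions, Dvl2 separates under stress and Wnt7b most in log phase, while Axin2 overlaps between NT, scrMo and DkkMo within each condition.

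Several members were higher with both morpholinos than in NT cultures under stress. Fzd7, the most abundant frizzled, had 1799, 1643 and 1724 normalised counts in NT, 2498, 2635 and 2633 in scrMo and 2159, 2299 and 2355 in DkkMo. Its log2 difference from NT was 0.52 with scrMo (adjusted p = 6.54e-07) and 0.35 with DkkMo (adjusted p = 8.08e-05), and DkkMo was slightly below scrMo (log2 -0.17). Fzd3, Fzd5, Ror1, Wnt5a, Dkk3 and Ccn4 likewise passed above NT with each morpholino, with log2 differences of 0.19 to 0.42 for scrMo and 0.20 to 0.56 for DkkMo. Dkk2 was highest in scrMo, at 89.1, 126 and 102 against 49.8, 42.5 and 40.8 in NT and 59.9, 76.6 and 57.1 in DkkMo, 2.39 times NT on the count scale (log2 0.41, adjusted p = 3.98e-05).

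Ccnd1 and Myc were lower with both morpholinos than in NT under stress. Ccnd1 had 13586, 12803 and 13076 in NT, 10749.6, 12146 and 11678 in scrMo and 9819, 9809 and 9732 in DkkMo, and DkkMo was also below scrMo (log2 -0.23, adjusted p = 0.00657). Myc had 13024, 12408 and 12830.5 in NT, 10149, 10444 and 10955 in scrMo and 9967, 9481 and 9617 in DkkMo, with log2 differences from NT of -0.27 and -0.39. Lef1 was below scrMo with DkkMo (log2 -0.16, adjusted p = 0.0345), at 868, 933 and 864 against 1040.1, 991 and 1049, with 961, 1028 and 1013 in NT. Axin2 had 34.1, 52.9 and 39.8 in NT, 52.2, 42.2 and 52.5 in scrMo and 50.7, 31.7 and 52.4 in DkkMo, which overlapped, with a 95% interval of -0.18 to 0.10 for DkkMo against scrMo. Tcf7 gave -0.10 to 0.12 for the same comparison.

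More members were DE between nutritional stress and log phase than between morpholinos, as were more of all genes. In NT cultures 10 members were DE, against 18.1% of all genes, 4 higher (8.22%) and 6 lower (9.9%), and 29 passed the adjusted p against 65.6%. With scrMo 9 were DE, against 10.7%, 6 higher (4.38%) and 3 lower (6.28%), and 27 passed against 58.8%. With DkkMo 9 were DE, against 16.5%, 3 higher (6.24%) and 6 lower (10.2%), and 32 passed against 65.6%. The median of the 41 was 0.06 in NT, 0.11 in scrMo and 0.02 in DkkMo cultures, beside -0.01 over all genes in each. Centring each library on its median moved the median of all genes to 0.14 in NT, 0.06 in scrMo and 0.15 in DkkMo, and the split of DE members to 8 higher and 5 lower in NT, 7 and 3 in scrMo, and 9 and 3 in DkkMo. With limma voom the splits were 4 and 11, 11 and 4, and 10 and 9. In that order centring called 3364, 1792 and 3001 of 16562 genes DE, and limma voom 6581, 4493 and 5868. The directions given below for DE members held with both. Without log phase scrMo library 1, 5 members were DE in scrMo cultures, since Fzd4, Fzd5, Ctnnb1 and Dkk2 (log2 0.51, 0.54, 0.53 and 0.58) came under the fold limit.

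Ccnd1 fell in all 3 treatments. Its normalised counts went from 30779.8, 34139 and 33788 to 13586, 12803 and 13076 in NT, with log2 differences of -1.30 ± 0.056 in NT, -1.28 ± 0.056 in scrMo and -1.53 ± 0.056 in DkkMo cultures (adjusted p = 3.54e-13, 1.79e-12 and 1.02e-13). The gene LTO1 was lower under stress as well, with log2 differences of -1.13, -1.33 and -1.49. Its exons overlap 23.4% of the exon bases of Ccnd1 on the opposite strand, and reads on these shared bases cannot be told apart without strand. The summed proliferation genes stood at 4666 to 5023 normalised counts in the 9 stress libraries, below every log phase library, and their part in the fall of Ccnd1 was not tested.

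Ccn4 fell under stress in all 3 treatments, where its mean normalised count was 2.98 times lower in NT, 1.76 times in scrMo and 2.24 times in DkkMo (adjusted p = 1.62e-12, 3.89e-08 and 7.22e-11). Ccn5 and Dkk3 fell in NT (log2 -1.80 and -1.37) and with DkkMo (log2 -1.38 and -0.60). The Dkk3 difference with DkkMo was -0.44 without log phase DkkMo library 2 and -0.58 without stress DkkMo library 3, both under the fold limit. In scrMo cultures, where both were already low in log phase, the differences were 0.35 and 0.17 and did not pass (adjusted p = 0.0695 and 0.22). Myc was DE lower in scrMo cultures (log2 -0.72, adjusted p = 6.07e-07) and passed with DkkMo (log2 -0.51), while in NT it was 11719, 11676 and 10843 in log phase and 13024, 12408 and 12830.5 under stress (log2 0.16, adjusted p = 0.107).

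Receptors went in both directions. The co-receptor Lrp6 rose from 2884, 2805 and 2873 to 5484, 5354 and 5373 in NT (1.89-fold, log2 0.86 ± 0.080, adjusted p = 1.68e-08), by log2 0.78 with DkkMo, and by 0.55 with scrMo, where it passed the adjusted p and not the fold limit. Fzd4, which serves the ligand norrin besides Wnts, rose in all 3 treatments, in NT from 434, 396 and 429 to 790.4, 732 and 732 (log2 0.59), in scrMo by 0.63 and with DkkMo by 0.67. Fzd5 rose from 241, 292 and 279.7 to 615, 634 and 675 with DkkMo (log2 0.80 ± 0.074), from 254, 381 and 391 to 671, 672 and 669.6 with scrMo (log2 0.66) and by 0.46 in NT. An unnamed transcript, Gm38058, overlaps 17.8% of the exon bases of Fzd5 on the opposite strand. The Fzd4 difference in NT was 0.56 without log phase NT library 2 or stress NT library 1.

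Fzd7 was DE higher only in scrMo cultures (log2 0.63), passed with DkkMo (log2 0.37) and did not pass in NT (log2 0.11, 95% interval -0.00 to 0.23). Its scrMo response exceeded that of NT by an interaction of 0.52 ± 0.080 (adjusted p = 3.63e-05). Fzd2 went the other way, from 738, 925 and 915 to 409.6, 462 and 439 in NT (log2 -0.69) and from 945, 1148 and 738 to 547, 464 and 558 with DkkMo (log2 -0.62), where it came to -0.50 without log phase DkkMo library 2 and -0.56 without stress DkkMo library 2. With each library centred on its median Fzd2 was -0.53 in NT and -0.45 with DkkMo, inside the fold limit. Fzd1 followed it, with means of 148 ± 13.7 in log phase and 56.7 ± 10.7 under stress in NT (SD, n = 3; log2 -0.51, adjusted p = 2.2e-05). Of the 8 frizzled genes, Fzd9 did not pass in any of the 3 contrasts.

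**Figure D4:**
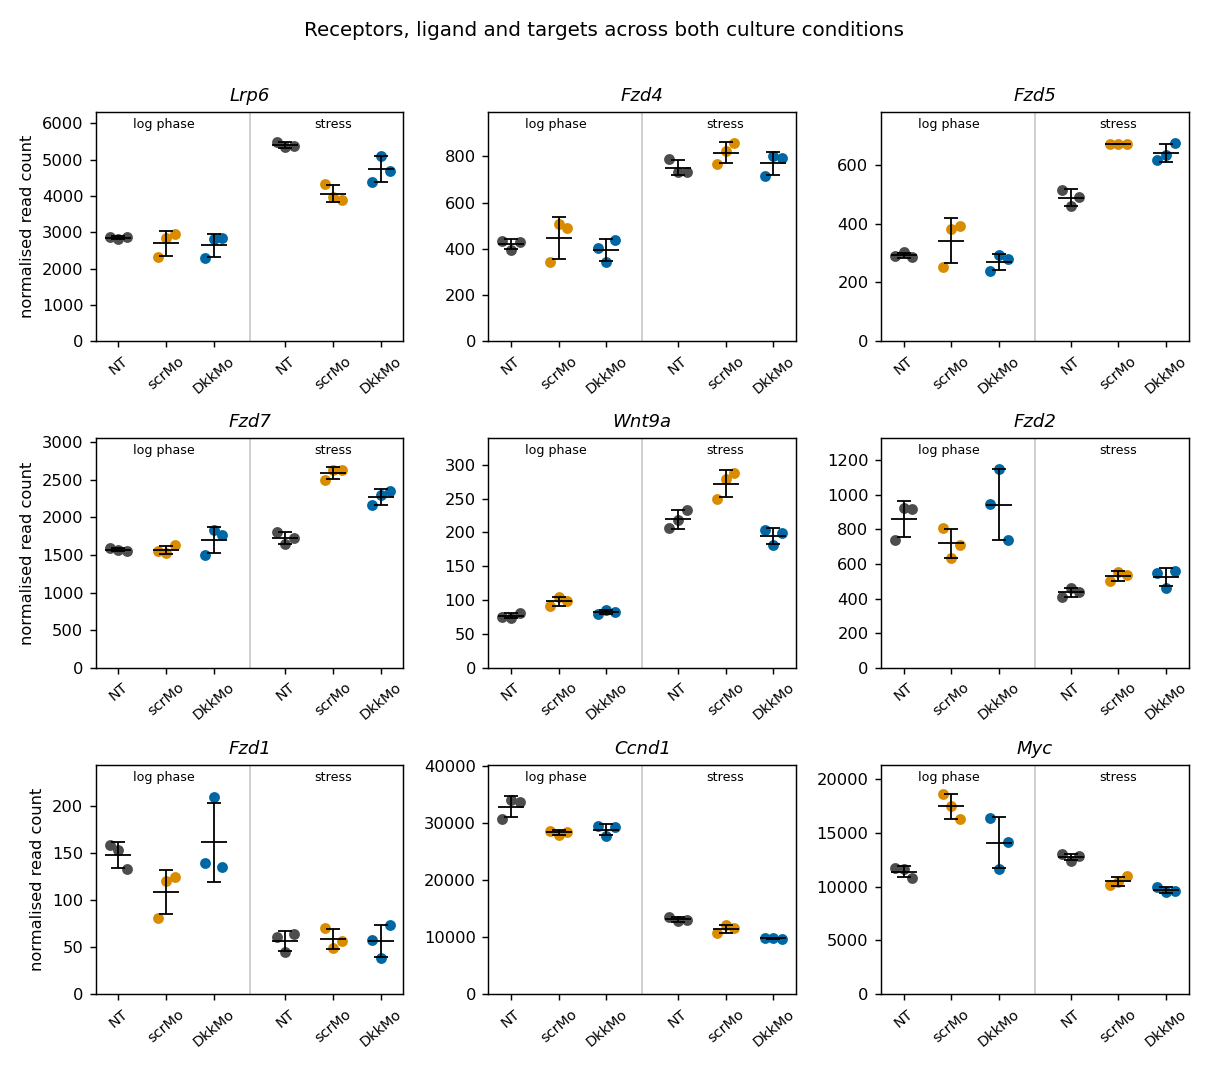
Normalised read counts of 9 members in each library of log phase and nutritional stress; points are the 3 libraries of a group, bars the mean and its SD. Lrp6, Fzd4, Fzd5 and Wnt9a are higher and Fzd1, Fzd2 and Ccnd1 lower in every stress library than in every log phase library, while Fzd7 has its highest mean in stress scrMo and Myc in log phase scrMo cultures.

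Ligands shifted in composition. Wnt10b fell from 5999, 6727 and 6492 to 3525, 3275 and 3288 normalised counts in NT (log2 -0.87 ± 0.056, adjusted p = 7.7e-11), with DkkMo (log2 -0.74) and with scrMo (log2 -0.33). Wnt9a rose from 75.5, 74.1 and 81.0 to 206, 218 and 233 in NT, a 2.85-fold difference of counts (log2 0.65 ± 0.046, adjusted p = 3.97e-10), 2.77-fold with scrMo and 2.36-fold with DkkMo. Wnt5a fell in NT (log2 -0.38) and rose with scrMo (log2 0.32) and DkkMo (log2 0.14), and the scrMo response differed from that of NT (interaction 0.70 ± 0.087, adjusted p = 4.09e-06). Summed per kb, the 7 ligands stood at 2131 in log phase and 1231 under stress in NT, 1901 and 1606 with scrMo, and 1701 and 1106 with DkkMo, most of it Wnt10b. The 8 frizzled receptors summed to 786 and 766 in NT, 747 and 1034 with scrMo, and 831 and 953 with DkkMo. Dkk2, Dkk3 and Kremen1 together gave 1081 and 526, 611 and 697, and 946 and 685.

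Inside the cell, β-catenin mRNA was higher under stress in all 3 treatments, in NT from 17990.0, 19212 and 19489.7 to 25443, 24615 and 24973 (log2 0.40) and DE in scrMo (log2 0.59). In scrMo its counts went from 14908, 16988 and 17044 to 24784, 24828 and 24495, and with DkkMo from 15556, 18639 and 17391 to 23142, 23890.5 and 23492 (log2 0.45). Ulk4 overlaps 14.6% of its exon bases on the opposite strand. Axin1, the scaffold of the destruction complex, passed in all 3 (log2 0.54, 0.15 and 0.45), as did Apc (log2 0.35, 0.38 and 0.49). Dvl2 rose in NT (log2 0.54) and scrMo (log2 0.50), and with DkkMo the difference was 0.08 (95% interval -0.04 to 0.20).

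Tcf7l1, mostly a repressor of Tcf target genes and more abundant per kb than Tcf7l2, was higher under stress in all 3 treatments. Its counts went from 412, 440.0 and 441 to 765, 770.5 and 798 in NT (log2 0.60 ± 0.059, adjusted p = 3.65e-08), from 465, 482 and 377 to 661, 699 and 731 with scrMo (log2 0.46) and from 461, 477 and 418 to 669, 672 and 751 with DkkMo (log2 0.44). The conditions did not overlap in any treatment, and the difference in NT was 0.58 without log phase NT library 1, under the fold limit. Tcf7l2 was lower in all 3 (log2 -0.31, -0.37 and -0.48).

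Of the feedback genes, Axin2 and Lef1 were higher under stress in each treatment. Axin2 passed with 1.73, 2.41 and 1.96 times the log phase counts in NT, scrMo and DkkMo (adjusted p = 0.0253, 0.000972 and 0.007), at means of 24.5 ± 5.96 and 42.3 ± 9.64 in NT (SD, n = 3), and its DkkMo groups overlapped in range. Lef1 passed with log2 differences of 0.35, 0.50 and 0.31. Tcf7 did not pass in any.

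Tests of the difference between conditions called 2 members DE for DkkMo against scrMo, against 3.7% of all genes, and 7 for scrMo against NT, against 10.9%. By the adjusted p alone these were 11, against 22.2%, and 20, against 46%. Ccn5 and Dkk3 stood in both, and Ccn4, Dkk2, Myc, Ror1 and Wnt5a in the second.

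**Figure D5:**
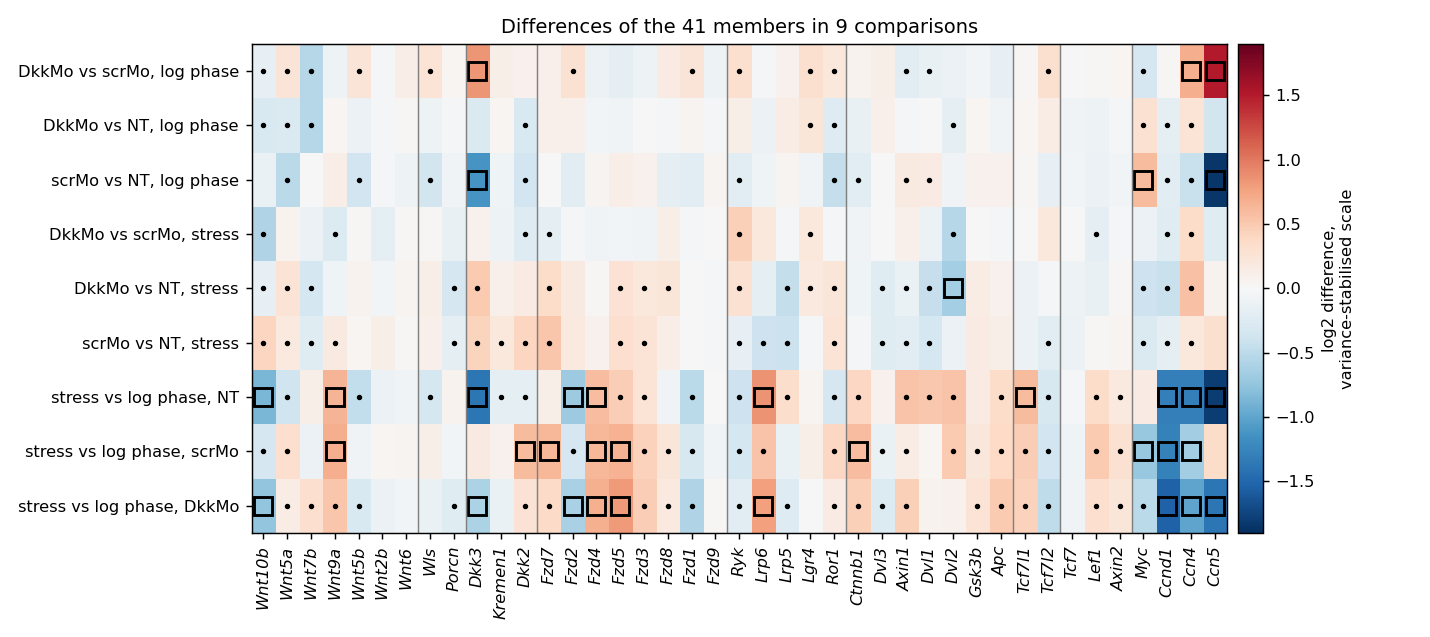
Log2 difference of the variance-stabilised value (colour, red higher and blue lower in the first-named group) of the 41 members, in columns by role, for 9 comparisons in rows; open squares mark DE members and dots members that passed the adjusted p alone. Squares are most numerous in the rows of stress against log phase, with 10 in NT, 9 in scrMo and 9 in DkkMo.

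Among 34 further components of the pathway with a value, of 51 listed, 4 were higher and 5 lower with DkkMo than with scrMo in log phase by the adjusted p, against 14.3% and 9.2% of all genes, and their median log2 difference was -0.02 beside 0.00 over all genes. The list was chosen by role and its values are descriptions. Under stress 1 of the 34 was DE, against 1% of all genes, namely Apc2, a relative of Apc, higher with DkkMo than with scrMo (log2 0.95) and than in NT (log2 0.75). Dact1, which binds dishevelled, was DE higher in log phase with scrMo (log2 0.73) and with DkkMo (log2 0.73) than in NT. Lgr6, another R-spondin receptor, was lower with DkkMo than in NT under stress (log2 -0.82). In NT cultures 8 of the 34 were DE higher and 1 lower under stress, against 8.22% and 9.9% of all genes, led by Lgr6 (log2 1.42), casein kinase Csnk1e (log2 1.16) and the co-repressor Tle1 (log2 1.03).

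Of the 27 genes with a value among 28 of the planar cell polarity and JNK branch, through which ncWnt signals pass, 2 were DE between DkkMo and scrMo in log phase, Ptk7 (log2 0.68) and Jun (log2 0.60), both higher with DkkMo, against 1.66% of all genes. Between DkkMo and NT, 2 of the 27 passed the adjusted p in log phase, both lower, against 9.81% of all genes. Under stress 6 were higher, against 19%, and 6 lower, against 22.7%, shares near the background. Under stress in NT cultures, Ptk7 (log2 -1.22), Vangl1 (log2 -0.88) and Jun (log2 -0.72) fell and Intu (log2 0.66) rose.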

How the data were processed

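Polyadenylated RNA of the 18 culture libraries was sequenced, and per the submitters' notes and the study's methods reads were aligned to GRCm38 with HISAT2 2.1.0, handled with SAMtools 1.9, and counted with featureCounts of Subread 2.0.0. StringTie is also listed there. The authors deposited variance-stabilised log2 values from DESeq2 for 16576 genes. Strandedness of counting is not given in the sources used here. Exons of 10 members overlap those of another gene, among them Lef1, with 13.7% of its exon bases under Gm43352 on the opposite strand. The transformation was reversed exactly to normalised counts and reads, and 100% of the recovered reads were whole numbers within 0.02 reads. They gave depths of 25.9 to 44.8 M reads on the 16562 genes tested.

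The members and gene lists were chosen with earlier results of these data known. Genes were named by role: the highest member per kb of each role, every feedback gene and the 6 DE members with the largest change in a comparison were to be given in every library, and some DE members appear in 1 treatment only or by their means, while Wnt7b, Wnt5a, Ror1, Dkk2, Ryk, Lgr4, Wnt9a, Lrp5, Dvl1, Fzd7 and others beside them were singled out after their values were seen. The rule for genes most like mouse Dkk1 could not be applied, as it had no value. Symbols were matched to GENCODE vM21 (GRCm38) for exon lengths and coordinates.

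The deposited values entered limma 3.58.1 in R 4.3.3, with a mean for each of 6 groups over all 18 libraries, trended empirical Bayes and Benjamini-Hochberg adjustment over 16562 genes. The filter (above the lowest value of the table in at least 3 libraries) removed 0 genes, and 14 genes whose values spanned over 6 log2 units within a group were set aside. Intervals are 95%. The test was checked on simulated data. Alternatives were no filter or only genes above the median gene, log2 of the normalised count plus 1, median centring, quantile normalisation, the compared groups alone, no trend, limma voom on the reads, the adjusted p alone, each library left out and the title's replicate number as a block. In 10 pairs of groups, same-numbered libraries correlated in their deviations between -0.0586 and 0.624. No pair of groups was over 0.1 throughout, so the numbers were not taken to pair cultures. The mean correlation was highest for log phase scrMo and DkkMo, at 0.382 for the same number and -0.18 for different numbers. The source of that correlation was not tested. Log phase scrMo library 1 differed from libraries 2 and 3 by a chi-square of 29.2 and 34.8 per gene. Libraries 2 and 3 differed by 10.1. In log phase DkkMo the same values were 30.5, 25.3 and 15.7. In the stress NT group 1 number stands in 2 titles; those libraries differed by a chi-square of 6.28 per gene and were kept as separate. All 18 value columns were assigned (0 left over), and the table and 16 libraries of tumours were not used here. Python 3.11.15, pandas 2.3.3 and matplotlib 3.10.9 were used.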

Additional observations from a re-analysis of the deposited data

Results flagged for a closer look

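The 9 results given here were picked because the effect of a morpholino differed between log phase and nutritional stress in a test of the difference itself, an interaction in limma over all genes, with adjusted p below 0.05 and a difference over 1.5-fold. For DkkMo against scrMo, 2 members qualified, beside 3.7% of all genes. The difference was smaller under stress for Ccn5, by an interaction of -1.73 ± 0.230 (adjusted p = 3.59e-05), and for Dkk3, by -0.76 ± 0.159 (adjusted p = 0.00196).

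For scrMo against NT, 7 members qualified, beside 10.9% of all genes. In 6 of them scrMo lay below NT in log phase and above it under stress: Ccn5 with an interaction of 2.15 ± 0.230 (adjusted p = 6.34e-07), Dkk3 with 1.53 ± 0.159 (adjusted p = 4.23e-07), Dkk2 with 0.77 ± 0.089 (adjusted p = 1.6e-06), Ror1 with 0.71 ± 0.086 (adjusted p = 2.77e-06), Wnt5a with 0.70 ± 0.087 (adjusted p = 4.09e-06) and Ccn4 with 0.63 ± 0.089 (adjusted p = 1.48e-05). Of these, Ccn5 under stress differed by 0.30 with an adjusted p of 0.143. Myc went the other way, with scrMo above NT in log phase and below it under stress (-0.87 ± 0.118, adjusted p = 9.53e-06). Both interactions rest on the same scrMo libraries, and those under stress held the highest share of mitochondrial reads, whose part was not tested.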

How the results depend on the processing

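None of the 44 differences of DE members changed direction under any alternative. Several alternatives could not change it, since no filter, no trend, the compared groups alone and only genes above the median gene keep the same group means. The 44 were also picked for exceeding 1.5-fold. The numbers of DE members did move. In the order DkkMo against scrMo in log phase and under stress, DkkMo against NT likewise, scrMo against NT likewise, stress against log phase in NT, scrMo and DkkMo, and the interactions of DkkMo against scrMo and scrMo against NT with culture condition, they were 3, 0, 0, 1, 3, 0, 10, 9, 9, 2 and 7. With the adjusted p alone they were 17, 10, 10, 20, 14, 22, 29, 27, 32, 11 and 20. With log2 of the normalised count plus 1 they were 6, 2, 3, 5, 7, 3, 15, 17, 19, 5 and 10, and with limma voom 6, 2, 3, 5, 7, 4, 15, 15, 19, 5 and 13. Of all 16562 genes, the log2 scale called 1158, 891, 523, 2317, 1320, 2923, 6251, 4477, 5854, 1553 and 4220. Limma voom called 1121, 924, 555, 2740, 1350, 3152, 6581, 4493, 5868, 1452 and 4456 of them. Neither scale shrinks differences of low genes, and limma voom also took library totals in place of size factors. Quantile normalisation gave 1 for DkkMo against scrMo and 0 for DkkMo against NT under stress, and the filter at the median gene left 1 and 4 for the interactions because fewer members were tested.

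Leaving out single libraries gave 3 to 3, 0 to 1, 0 to 1, 1 to 1, 2 to 3, 0 to 0, 9 to 10, 5 to 10, 8 to 10, 2 to 2 and 6 to 8 in that order. The 1 under stress came without scrMo library 1 or DkkMo library 3, the 1 for DkkMo against NT without log phase DkkMo library 1 or 2, and the 5 without log phase scrMo library 1, and the cause was not tested. Of 318 single differences of DE members under such omissions, 15 came under the fold limit. The replicate number as a block left the counts at 3, 0, 0, 3, 9, 9 and 2 where it could be used, and changed no call. No paired analysis was possible because of the doubled number for comparisons with stress NT.

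With 3 libraries a group, an exact permutation test could not go below a two-sided p of 0.1. Depth limits the 8 members under 100 normalised counts on average, among them Axin2, Ror1, Dkk2 and Wnt6. Dkk-1 itself, human or mouse, could not be followed, so the effect of DkkMo on its target is not shown here.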
